A study of Mus musculus with 6 samples.

Results

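Mitotic cohesin and its regulators were followed as 10 genes chosen by name, Smc1a, Smc3, Rad21, Stag1, Stag2, Nipbl, Wapl, Pds5a, Pds5b and Esco2, whose rows were found through their Ensembl identifiers among the 22579 genes of the count table. All 10 passed the filter on low counts and were tested, with 14766 genes tested in all. RNA was counted in 6 libraries of about 1000 mouse spermatogonia each, positive for THY1 and labelled Day 4, 3 of them from mice with a Ddx20 knockout and 3 from littermates as controls. THY1 is a surface marker by which undifferentiated spermatogonia are enriched, and DDX20 is an RNA helicase that works with the SMN protein in building splicing particles. The knockouts are also abbreviated cKO. The sources used here give no strain, deleted exons, Cre driver or genotype of the controls, no event from which the day is counted, and no animal or litter for a library.

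Cohesin is a ring-shaped protein complex that holds sister chromatids together from their replication until anaphase and that folds chromosomes into loops in interphase. Its ring is formed by SMC1A, SMC3 and the kleisin RAD21, to which either STAG1 or STAG2 binds. NIPBL, with its partner MAU2, loads the ring and drives loop growth, WAPL with PDS5A or PDS5B opens it again, and ESCO2 acetylates SMC3 during DNA replication so that rings stay closed. Germ cells also make meiotic versions of several subunits.

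The libraries held 8428871 to 11893287 counted reads in controls and 11656130 to 12497967 in knockouts, and the 10 genes together held 15262 to 24187 reads per library. Mitochondrially encoded transcripts took 14.01% to 16.9% of reads in controls and 19.8% to 20.1% in knockouts. Knockout 1 and knockout 2 were the closest pair, with a mean chi-square per gene of 1.78 where sampling noise gives 1, against 11.96 to 104 in the other 14 pairs. They were kept as separate libraries, and results are also given with the pair counted as 1 library. Since no label ties a library to an animal, the spread behind each p-value may be technical. Ddx20 itself had 63.7, 36.3 and 40.6 CPM (read counts scaled to library size) in controls and 11.9, 15.2 and 10.7 CPM in knockouts, so that the groups did not overlap. The edgeR quasi-likelihood test gave a log2 fold change of −1.89 ± 0.26 (SE) and an adjusted p of 0.0118.

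Germ cell transcripts were abundant in all 6 libraries, with Dazl, a germ cell RNA-binding protein gene, at 2496 to 3316 CPM. Thy1 itself stood at 5.59 to 13.6 CPM. Of the 10 cohesin genes, Wapl fell in the knockouts, 0 rose and 9 did not pass the test. That is 1 of 10, where 4.83% of all genes tested were called in either direction, 2.8% lower and 2.03% higher. DESeq2 called 2 members lower, against 5.74% of genes, and limma-voom 5, against 11.7%, and neither called a member higher. All 10 fitted log2 fold changes were below 0, against 49.7% of all genes tested, and their median was −0.49, where the median of all genes tested was 0.01. In 6 of the 10 the knockout libraries lay wholly below the controls, against 15.8% of all genes tested that lay wholly below, 16.8% wholly above and 32.6% either way. An unadjusted edgeR p under 0.05 with a lower level was reached by 6 of 10, against 12.8% of all genes tested. In bulk samples, fewer cells of a type and less RNA per cell cannot be told apart.

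The median difference of the 10 genes was smaller without 1 control library and after a correction for transcript length and GC content. Summed over the 10 genes, the level was 2306, 1866 and 1763 CPM in the 3 controls and 1416, 1400 and 1521 CPM in the 3 knockouts. Control 1 was the highest, and the groups did not overlap. Without control 1 the median log2 fold change of the 10 genes was −0.27, and with the trend over both properties taken out of each library it was −0.24. In each of these settings 2 of 10 had an unadjusted edgeR p under 0.05 with a lower level. Counted in either direction, 3887 of 15520 genes had such a p without control 1, and 3369 of 14766 with the trend taken out. Summed levels of marker genes of other cells also differed: those in controls and knockouts were 64.4 to 80.6 and 163 to 233 CPM for 6 myoid genes, 27.3 to 38.0 and 60.1 to 62.7 CPM for 8 Sertoli genes and 23.2 to 27.7 and 44.5 to 67.4 CPM for 6 T cell genes. For 6 macrophage genes they were 632 to 1326 and 1484 to 2178 CPM and for 6 endothelial genes 50.3 to 52.5 and 63.2 to 69.6 CPM. Most of the myoid sum was Acta2, at 52.5 to 73.4 CPM in controls and 137 to 207 CPM in knockouts. Actg2 and Des, at lower levels, also lay wholly higher in knockouts, and Myh11, Cnn1 and Tagln overlapped. The macrophage and Sertoli sums rested on 1 gene each, as sums computed after the values were seen show. Without Lyz2, at 303.5 to 903.5 and 1124 to 1761 CPM (edgeR adjusted p 0.0998), the other 5 macrophage genes summed to 329 to 422 and 345 to 417 CPM and overlapped, and Mrc1 lay wholly lower in knockouts (147.8 ± 17.7 and 119.1 ± 3.97 CPM, SD, n = 3 per group). Without Inha, at 7.91 to 11.8 and 29.2 to 38.5 CPM, the other 7 Sertoli genes summed to 18.6 to 26.2 and 24.3 to 30.9 CPM and overlapped. Passing the edgeR test upward were 2 myoid genes, 1 Sertoli gene and 2 T cell genes. With the close knockouts as 1 library edgeR called 1 gene higher in the whole table, so at most 1 of these calls could remain. For 6 Leydig cell genes the sums overlapped, at 23.2 to 60.7 and 45.1 to 62.3 CPM. Among them Cyp17a1 lay wholly higher in knockouts (edgeR adjusted p 0.0722) and the others overlapped. Both DESeq2 and limma-voom called Cyp17a1 higher. DESeq2 also called Tie1, an endothelial gene, and Lyz2 higher, and limma-voom called Cd3d, a T cell gene, higher and Mrc1 lower. The sums also overlapped for 8 germ cell genes, at 3450 to 4158 and 3814 to 4180 CPM. Most of that sum was Dazl, with means of 2761 CPM in controls and 3125 CPM in knockouts. By edgeR Gfra1 and Etv5, genes of undifferentiated spermatogonia, fell and 6 did not pass. Of the 8, 5 lay wholly lower in knockouts (Sall4, Zbtb16, Gfra1, Etv5 and Id4) and 1, Ddx4, wholly higher. Of all genes tested, 15.8% lay wholly lower and 16.8% wholly higher. DESeq2 also called Zbtb16 lower, and limma-voom also called Sall4, Zbtb16 and Id4 lower. Amh, a defining Sertoli gene, had at most 2 reads in any library, and Dhh, Tagln, Cnn1 and Cd8a were each at 0 in at least 1 library. Fshr, a Sertoli gene too low to be tested, had 3, 0 and 0 reads in controls and 37, 30 and 7 reads in knockouts, wholly higher. Of the 5 Sertoli genes tested, 4 had a log2 fold change above 0 and 1 below. The part of these cells, of library composition and of RNA quality in the cohesin values was not tested.

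**Figure D1:**
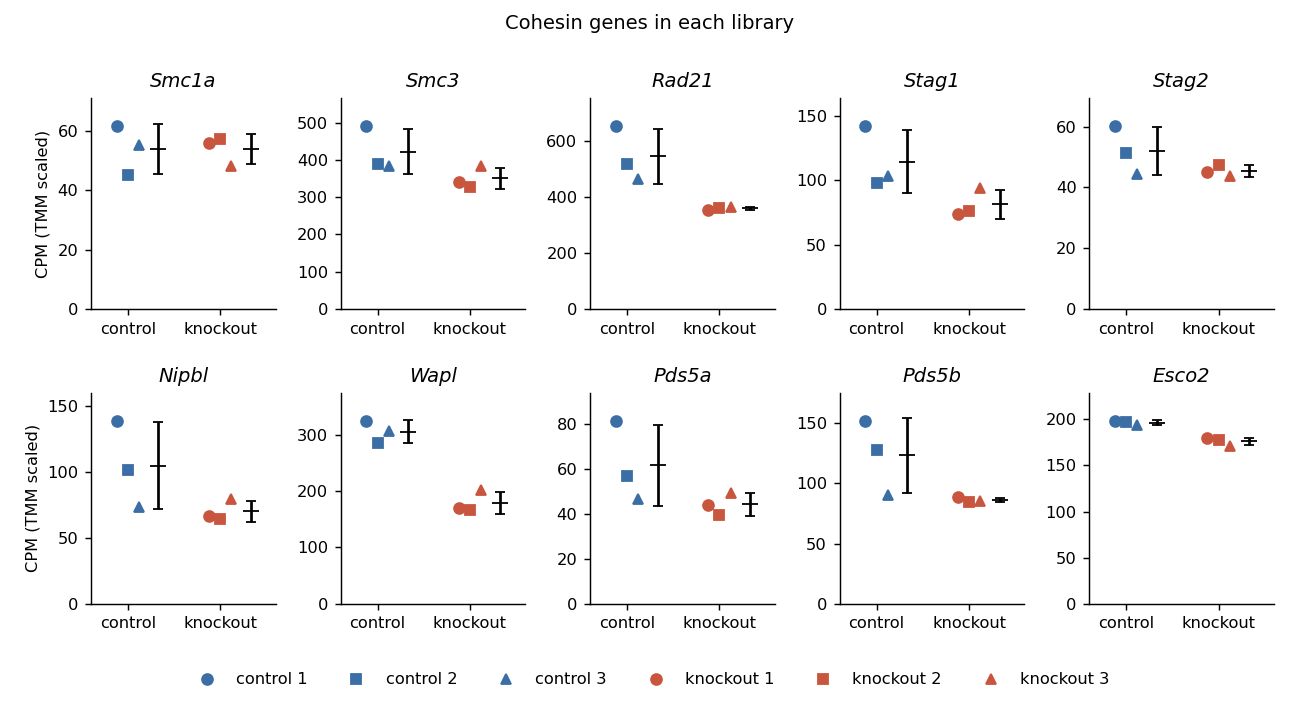
TMM-scaled CPM (vertical axis, from 0) of the 10 cohesin genes in the 3 control (blue) and 3 knockout (red) libraries, with the mean and SD of each group beside the points. The Wapl points of the knockouts, 166 to 202 CPM, lie below those of the controls, 285 to 325 CPM, while the Smc1a points overlap.

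Among the ring subunits the fitted difference was largest for Rad21 and nearest 0 for Smc1a. Rad21, the kleisin gene that closes the ring and is cut by separase at anaphase (ENSMUSG00000022314, chromosome 15, 51962240 to 51991747 of mm10, minus strand), had 653, 515 and 465 CPM in controls and 351, 358 and 364 CPM in knockouts. Every knockout library lay below every control library, and the 3 knockouts differed by less than the controls did. Its log2 fold change was −0.61 ± 0.18 (SE), which did not pass by edgeR (adjusted p 0.0767) and did by DESeq2 (adjusted p 0.00705) and limma-voom (adjusted p 0.00375). With the close knockouts as 1 library it did not pass by either (adjusted p 0.0766 and 0.118). Without control 1 the value was −0.46 with an edgeR adjusted p of 0.0441.

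Smc3, whose protein carries the acetylation sites of the ring (ENSMUSG00000024974, chromosome 19, 53600398 to 53645833, plus strand), had 491, 389 and 384 CPM in controls and 341, 328 and 382 CPM in knockouts. The highest knockout stood just under the lowest control. The log2 fold change of −0.27 ± 0.17 (SE) did not pass (edgeR adjusted p 0.383), and it was −0.14 without control 1. Smc1a, the partner of Smc3 in the ring and an X-linked gene (ENSMUSG00000041133, chromosome X, 152016428 to 152062694, plus strand), had 61.8, 44.99 and 55.3 CPM in controls and 56.0, 57.4 and 48.1 CPM in knockouts. The groups overlapped fully, with means of 54.0 ± 8.46 and 53.8 ± 5.04 CPM (SD, n = 3 per group), and the log2 fold change was −0.01 ± 0.17 (SE). Its sign turned in 7 of 18 alternative settings, and its adjusted p by edgeR was 0.990.

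The STAG subunits bind RAD21 and are alternatives within a ring. Stag1, the form linked to telomere cohesion (ENSMUSG00000037286, chromosome 9, 100597798 to 100959375, plus strand), had 143, 97.9 and 104 CPM in controls and 73.8, 76.4 and 94.3 CPM in knockouts. The groups did not overlap, and the log2 fold change of −0.49 ± 0.18 (SE) did not pass by edgeR (adjusted p 0.136), while limma-voom gave an adjusted p of 0.0195, and 0.368 with the close knockouts as 1 library. Without control 1 the value was −0.31. Stag2, the X-linked form (ENSMUSG00000025862, chromosome X, 42149317 to 42277185, plus strand), had 60.3, 51.3 and 44.3 CPM in controls and 44.99, 47.5 and 43.7 CPM in knockouts. These groups overlapped, with a log2 fold change of −0.20 ± 0.17 (SE) and an edgeR adjusted p of 0.527, and −0.08 without control 1. The libraries keep no strand, and 28 exon bases of Stag2 and 255 and 119 of Pds5a overlap short unclassified gene records.

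Wapl, the gene of the cohesin release factor (ENSMUSG00000041408, chromosome 14, 34673928 to 34747983, plus strand), was the member that passed the main test. It had 325, 285 and 306 CPM in controls and 170.3, 166 and 202 CPM in knockouts. Each knockout library lay below each control, and the mean of 179.5 ± 19.8 CPM in knockouts was 58.8% of the 305 ± 20.3 CPM in controls (SD, n = 3 per group). The difference was −0.77 ± 0.16 on the log2 scale (SE; edgeR adjusted p 0.0278). With the pair of close knockouts counted as 1 library it was −0.72 with an edgeR adjusted p of 0.189, a DESeq2 adjusted p of 0.0197 and, at −0.69, a limma-voom adjusted p of 0.0364. The edgeR call was also lost without control 2 (adjusted p 0.0539) and without knockout 1, 2 or 3 (adjusted p 0.185, 0.195 and 0.0748), while the log2 fold change without 1 library ran from −0.86 to −0.71.

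Promoter windows are shown for 3 members that differed in response, Wapl, which fell, Pds5b, which was lower without passing, and Smc1a, whose groups overlapped. They come from RefSeq on GRCm38.p6, 250 bases before and 50 after the start site, 5′ to 3′ on the strand of the gene, and 6 of the 10 members matched by symbol. Capitals mark matches on either strand to the E2F words TTCCCGC or TTCGCGC or TTGCCGC or TTGGCGC, to the cell cycle homology region (CHR) words TTTGAA or TTCGAA, and to CCAAT.
Wapl, chr14:34673678-34673977, plus strand: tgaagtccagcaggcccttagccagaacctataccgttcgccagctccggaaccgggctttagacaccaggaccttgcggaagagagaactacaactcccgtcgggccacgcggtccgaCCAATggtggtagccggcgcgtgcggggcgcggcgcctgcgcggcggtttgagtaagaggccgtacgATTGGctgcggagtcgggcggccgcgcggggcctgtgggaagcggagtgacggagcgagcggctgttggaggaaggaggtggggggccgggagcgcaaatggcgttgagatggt
Pds5b, chr5:150673577-150673876, plus strand: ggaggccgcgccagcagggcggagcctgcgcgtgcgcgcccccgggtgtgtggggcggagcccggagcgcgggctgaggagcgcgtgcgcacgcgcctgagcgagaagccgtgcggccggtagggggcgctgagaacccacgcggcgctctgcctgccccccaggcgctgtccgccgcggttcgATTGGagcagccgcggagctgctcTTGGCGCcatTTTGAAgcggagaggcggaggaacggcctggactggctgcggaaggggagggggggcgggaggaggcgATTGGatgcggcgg
Smc1a, chrX:152016178-152016477, plus strand: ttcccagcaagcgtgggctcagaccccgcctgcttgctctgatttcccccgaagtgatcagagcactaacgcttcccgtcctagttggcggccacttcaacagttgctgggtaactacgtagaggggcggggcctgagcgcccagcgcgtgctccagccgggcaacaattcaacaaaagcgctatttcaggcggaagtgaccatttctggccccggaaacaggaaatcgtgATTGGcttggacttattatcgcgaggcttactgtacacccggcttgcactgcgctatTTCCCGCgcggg
Wapl held CCAAT in both orientations, 131 and 64 bases before its start, and no E2F or CHR word. Pds5b held an E2F word 42 bases and a CHR word 32 bases before its start, with CCAAT on the other strand 66 bases before and 36 bases after it. Smc1a held an E2F word 38 bases after its start and CCAAT on the other strand 19 bases before it. Of the 6 matched members 4 held an E2F word, against 9.57% of 32851 promoter windows of the same length, 1 held a CHR word, against 19.2%, and 4 held CCAAT, against 37.4%. The 4 with an E2F word were Pds5a, Pds5b, Smc1a and Stag1, and Smc3 and Wapl held none. The Stag1 window, at 100643198 to 100643497, lies inside the gene and not at the start of its GENCODE record, 100597798. Whether any of these words bears on the levels was not tested. GC content of the windows was 67% in Wapl, 75.7% in Pds5b and 58.3% in Smc1a, and 80.3% in Pds5a, 73.7% in Stag1 and 65% in Smc3. The 32851 windows were not matched to these in GC content. A match of letters is not a measured binding site.

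The PDS5 genes encode the large proteins through which WAPL opens the ring and through which acetylated rings are protected. Pds5b (ENSMUSG00000034021, chromosome 5, 150673739 to 150810690, plus strand) had 152, 128 and 90.5 CPM in controls and 88.5, 85.01 and 85.1 CPM in knockouts. The lowest control stood just above the highest knockout, and the log2 fold change of −0.52 ± 0.19 (SE) did not pass by edgeR (adjusted p 0.130), while limma-voom gave an adjusted p of 0.0260, and 0.196 with the close knockouts as 1 library. Pds5a (ENSMUSG00000029202, chromosome 5, 65605721 to 65698273, minus strand) had 81.6, 56.8 and 46.7 CPM in controls and 43.8, 39.5 and 49.5 CPM in knockouts. Knockout 3 lay above control 3, and the log2 fold change of −0.48 ± 0.22 (SE) did not pass (edgeR adjusted p 0.205). Without control 1 the values were −0.34 for Pds5b and −0.23 for Pds5a, and without control 3 Pds5b passed (−0.70, edgeR adjusted p 0.0393).

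Nipbl, the loader gene (ENSMUSG00000022141, chromosome 15, 8290617 to 8444463, minus strand), varied most between controls. It had 139, 102 and 73.2 CPM in controls and 66.2, 64.5 and 79.4 CPM in knockouts. Knockout 3 lay above control 3, and the log2 fold change of −0.58 ± 0.22 (SE) did not pass by edgeR (adjusted p 0.142), while limma-voom gave an adjusted p of 0.0117, and 0.265 with the close knockouts as 1 library. It was −0.32 without control 1 and −0.78 without control 3, where the edgeR adjusted p was 0.0497.

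Esco2, the acetyltransferase gene that acts at replication (ENSMUSG00000022034, chromosome 14, 65819038 to 65833994, minus strand), was the most even member. It had 199, 197 and 194 CPM in controls and 179.5, 177 and 172 CPM in knockouts. The groups did not overlap, but the difference was small: the knockout mean was 89.6% of the control mean, with a log2 fold change of −0.16 ± 0.14 (SE) and an edgeR adjusted p of 0.526.

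Levels of different genes were compared as CPM per kb of exon, with the union of all annotated exons as length. In controls the order by mean was Rad21 (129), Smc3 (76.1), Wapl (46.1), Esco2 (29.6), Pds5b (12.6), Nipbl (11.1), Stag1 (9.73), Smc1a (9.37), Stag2 (6.29) and Pds5a (3.19 CPM per kb). Ranges over the 3 controls did not overlap between neighbours among the first 5, nor between Smc1a and Stag2 or between Stag2 and Pds5a. From Pds5b through Nipbl and Stag1 to Smc1a each neighbour overlapped the next. In the knockouts Smc1a, at 9.33 CPM per kb, had the fifth place by mean. Counted per kb of the longest annotated transcript, Esco2 came before Wapl and Stag1 before Smc1a, Pds5b and Nipbl. Smc1a transcripts were thus listed far below those of its ring partner Smc3, in every library.

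**Figure D2:**
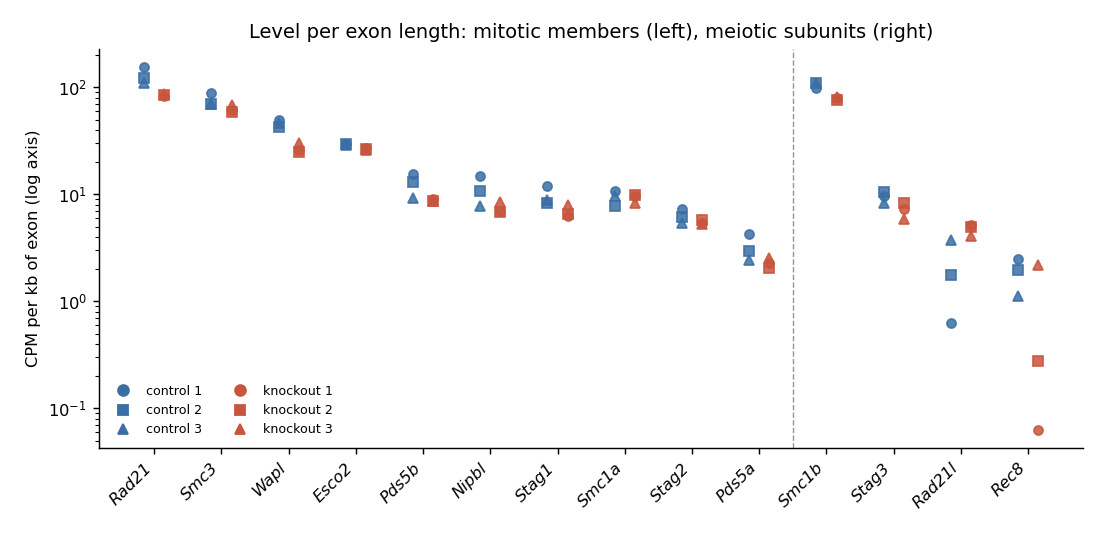
CPM per kb of exon (vertical log axis) in each control (blue) and knockout (red) library for the 10 cohesin genes, ordered by their control mean, and for 4 meiotic subunit genes right of the dashed line. Rad21 and Smc3 lead, and meiotic Smc1b stands about as high as Rad21, above the 7.80 to 10.7 CPM per kb of Smc1a in controls.

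Ratios of partner genes were compared within each library, which needs no scaling between libraries. The ratio of Rad21 to Smc3, per kb of exon, was 1.74, 1.74 and 1.58 in controls and 1.35, 1.43 and 1.25 in knockouts. The groups did not overlap, and the difference was −0.33 ± 0.07 on the log2 scale (SE), with an exact permutation p of 0.1, two-sided, the smallest that 3 against 3 libraries allow. The ratio of Esco2 to Esco1, the acetyltransferase gene that acts outside replication, was 1.59, 1.84 and 1.75 in controls and 2.00, 1.88 and 3.02 in knockouts, also without overlap (log2 difference 0.38 ± 0.22 (SE), exact permutation p 0.1). Adjusted over the 8 ratios both had a p of 0.400 by the exact permutation test, and such a design cannot reach 0.05.

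The other ratios overlapped between groups. Stag2 to Stag1 was 0.603, 0.747 and 0.609 in controls and 0.869, 0.886 and 0.659 in knockouts, with a log2 difference of 0.29 ± 0.17 (SE). The balance of loader to release factor, Nipbl to Wapl, was 0.3001, 0.251 and 0.168 in controls and 0.273, 0.273 and 0.276 in knockouts. Its knockout values lay inside the control range. Log2 differences (SE) were −0.26 ± 0.17 for Smc3 to Smc1a, 0.04 ± 0.13 for Pds5a to Pds5b, −0.21 ± 0.27 for Nipbl to Mau2 and −0.23 ± 0.16 for Wapl to Cdca5.

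**Figure D3:**
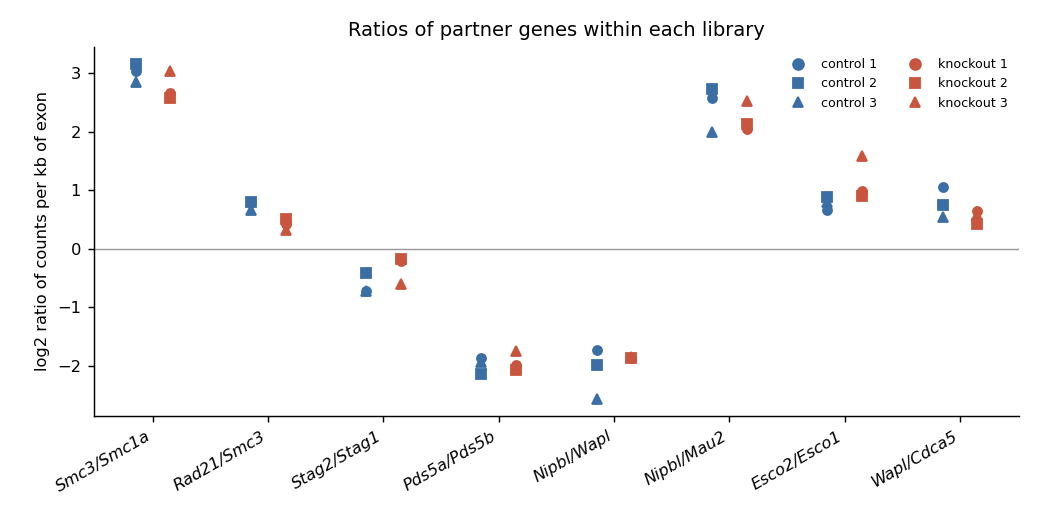
Log2 ratio of counts per kb of exon (vertical axis) for 8 pairs of partner genes in each control (blue) and knockout (red) library. The points of the groups do not overlap for Rad21/Smc3 and Esco2/Esco1, and those of Nipbl/Wapl in the knockouts fall together within the spread of the controls.

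Other regulators of mitotic cohesin were counted in 4 genes, of which edgeR and DESeq2 called 0 and limma-voom 1 (Cdca5). An unadjusted edgeR p under 0.05 with a lower level was reached by 2, against 12.8% of all genes tested. All 4 had a log2 fold change below 0 (median −0.43). Cdca5 encodes sororin, which guards acetylated rings against WAPL, and had 50.3, 54.7 and 67.5 CPM in controls and 35.2, 39.8 and 43.4 CPM in knockouts. Its groups did not overlap (log2 fold change −0.54, edgeR adjusted p 0.0993), and the test passed once the trend with length and GC was taken out (−0.79, edgeR adjusted p 0.0296). Esco1 had a log2 fold change of −0.51 (edgeR adjusted p 0.152) and Mau2, the partner of Nipbl, one of −0.35 (edgeR adjusted p 0.422). Hdac8, which removes the acetyl groups from SMC3, had a mean of 2.28 ± 0.82 CPM in controls and 2.02 ± 2.08 CPM in knockouts (SD, n = 3 per group), too few reads to place a difference.

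Among 8 genes that protect or remove cohesin at mitosis, 2 fell, 0 rose and 6 did not pass (median −0.39). Of all genes tested, edgeR called 2.8% lower. Espl1 encodes separase, the protease that cuts RAD21. It fell from 21.8, 30.5 and 33.6 CPM in controls to 13.4, 12.5 and 10.8 CPM in knockouts, without overlap (log2 fold change −1.23 ± 0.24 (SE), edgeR adjusted p 0.0237). Aurkb, the kinase gene of the chromosomal passenger complex, fell from 68.5, 79.1 and 70.6 CPM in controls to 43.3, 45.1 and 52.8 CPM in knockouts (log2 fold change −0.63, edgeR adjusted p 0.0485), and its call was lost with the replicate number as a block (adjusted p 0.0599) and without control 3 (0.0580). The shugoshin genes Sgo1 and Sgo2a, whose proteins shield cohesin at centromeres, had log2 fold changes of −0.56 and −0.59 and did not pass (edgeR adjusted p 0.199 and 0.144). Exons of Sgo2a overlap those of Kctd18 on the other strand over 35% of their length. Pttg1, the gene of the separase inhibitor securin, stood at 94.8 ± 10.5 and 101.4 ± 9.49 CPM in controls and knockouts (SD, n = 3 per group).

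Of 7 genes that link replication forks to cohesion, 6 were tested, 2 fell, against 2.8% of all genes tested, and 4 did not pass (median −0.67). Wdhd1, a replisome adaptor gene, fell from 153, 167 and 127 CPM in controls to 86.7, 80.7 and 78.5 CPM in knockouts (log2 fold change −0.86 ± 0.15 (SE), edgeR adjusted p 0.0205). Chtf18, a subunit gene of the alternative clamp loader, had 164, 130 and 108 reads in controls and 4, 4 and 38 reads in knockouts. Knockout 3 stood apart from the other two knockouts, and the log2 fold change was −3.11 ± 0.73 (SE; edgeR adjusted p 0.0402), and −5.00 without knockout 3. Its call was lost without any 1 of the 6 libraries, with adjusted p values of 0.0566 to 0.152 by edgeR. Timeless, a fork protection gene, had a log2 fold change of −0.81 that did not pass by edgeR (adjusted p 0.0620) and did by DESeq2 (0.0242) and limma-voom (0.00604), though by neither with the close knockouts as 1 library (adjusted p 0.176 and 0.182). Its partner gene Tipin had means of 677 ± 168 in controls and 736 ± 13.8 CPM in knockouts (SD, n = 3 per group). Chtf8 was not tested, with at most 5 reads in a library, and shares most of its exon bases with a second gene record of the same name.

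**Figure D4:**
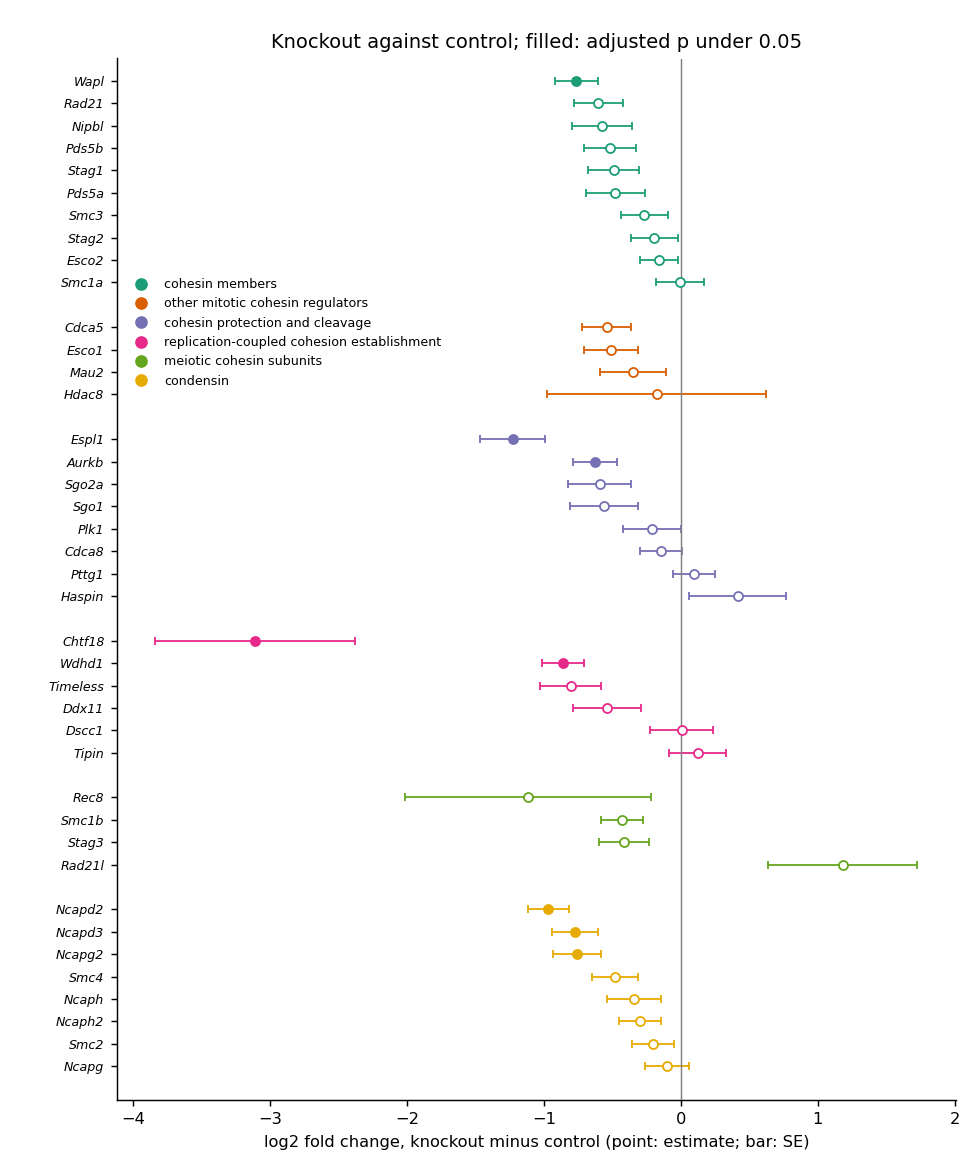
Fitted log2 fold change of knockout against control (horizontal axis; point, estimate; bar, SE) for the cohesin genes and 5 related lists, with filled points for an edgeR adjusted p under 0.05. Wapl is the filled point among the 10 cohesin genes, at −0.77, and Espl1, Aurkb, Chtf18, Wdhd1 and 3 condensin genes are the other filled points.

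Meiotic subunit genes were also present. Smc1b, the meiotic counterpart of Smc1a, had 401, 448 and 440.4 CPM in controls and 320.3, 311 and 328 CPM in knockouts, without overlap. Its log2 fold change of −0.43 ± 0.15 (SE) did not pass by edgeR (adjusted p 0.126), while DESeq2 and limma-voom gave adjusted p values of 0.0246 and 0.00878. With the close knockouts as 1 library the edgeR adjusted p of Smc1b was 0.438, at −0.41. Per kb of exon, Smc1b exceeded Smc1a in every library, 9.26, 14.2 and 11.4-fold in controls and 8.15, 7.72 and 9.73-fold in knockouts, a comparison chosen after the values were seen. Stag3, the meiotic STAG gene, stood at 54.9 ± 6.43 and 41.1 ± 6.89 CPM in controls and knockouts (SD, n = 3 per group). Its log2 fold change was −0.42 (edgeR adjusted p 0.196). Per kb of exon its control mean of 9.58 CPM was about that of Stag1, 9.73 CPM. Per kb of the longest annotated transcript it was lower, at 11.8 against 18.5 CPM.

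The meiotic kleisin genes were near the floor. Rec8 had 76, 61 and 43 reads in controls and 2, 9 and 72 reads in knockouts, so that knockout 3 lay within the controls and the other two far below. Rad21l had 11, 31 and 82 reads in controls and 92, 91 and 75 reads in knockouts, with CPM that did not overlap. Neither passed by edgeR (log2 fold changes −1.12 and 1.18, adjusted p 0.487 and 0.216), and the Rec8 value was −3.41 without knockout 3. Of the 4 meiotic genes, 0 were called by edgeR. An unadjusted edgeR p under 0.05 with a lower level was reached by 2, against 12.8% of all genes tested. DESeq2 called Smc1b lower, and limma-voom called Smc1b and Rec8 lower and Rad21l higher (adjusted p 0.000796 for Rec8). With the close knockouts as 1 library the edgeR log2 fold changes were −0.62 for Rec8 and 1.14 for Rad21l (adjusted p 0.801 and 0.467). For the loop boundary factor gene Ctcf, the log2 fold change was −0.49 (edgeR adjusted p 0.287), with 38.7 ± 12.3 CPM in controls and 27.6 ± 6.44 CPM in knockouts (SD, n = 3 per group).

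Condensin, the related complex that compacts mitotic chromosomes, gave 3 called genes of 8 (median −0.41), beside 1 of 10 for cohesin (median −0.49). Of all genes tested, edgeR called 2.8% lower. Ncapd2, Ncapd3 and Ncapg2 fell, with log2 fold changes of −0.97, −0.77 and −0.76 and edgeR adjusted p values of 0.0131, 0.0314 and 0.0389. Taking out the trend with length and GC ended the calls of Ncapd3 and Ncapg2 (edgeR adjusted p 0.0502 and 0.0783). Smc4 had a log2 fold change of −0.48 (edgeR adjusted p 0.114). The SMC5/6 complex, with 6 genes, had 0 called genes by edgeR and DESeq2, 1 by limma-voom, 1 with an unadjusted edgeR p under 0.05, and a median of −0.10. Of 12 proliferation genes, 8 fell by edgeR and DESeq2, against 2.8% and 5.74% of all genes tested, and 0 rose (median −0.81). In the whole table, edgeR called 0 genes lower with the close knockouts as 1 library. The edgeR calls of these 8 genes, and those of Gfra1 and Etv5, were thus lost. Without knockout 1, 2 or 3, edgeR called 1, 3 and 1 genes lower in the whole table. The 7 genes Espl1, Aurkb, Wdhd1, Chtf18, Ncapd2, Ncapd3 and Ncapg2 lost their edgeR calls with the close knockouts counted as 1 library (adjusted p 0.113 to 0.260) and without knockout 1, 2 or 3 (adjusted p 0.0566 to 0.270). With that pair as 1 library the edgeR log2 fold changes were −1.27 for Espl1, −0.58 for Aurkb, −0.87 for Wdhd1, −2.66 for Chtf18, −0.94 for Ncapd2, −0.74 for Ncapd3 and −0.80 for Ncapg2. In the same libraries Espl1, Wdhd1, Ncapd2 and Ncapg2 passed by DESeq2 (adjusted p 0.0154, 0.00784, 0.00654 and 0.0468) and by limma-voom (0.0113, 0.00837, 0.0101 and 0.0310). Aurkb and Ncapd3 passed by neither, and Chtf18 passed by limma-voom (adjusted p 0.0264), with no adjusted p from DESeq2. Without control 2 the 6 other than Ncapd2 lost theirs (adjusted p 0.0567 to 0.106). Differences between these lists were not tested.

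The genes whose log2 CPM followed Wapl most closely over the 6 libraries, among 7788 protein-coding genes with a mean of at least 10 CPM outside the lists, were Jade3, Nrde2 and Insig1 (Pearson r 0.999, 0.999 and 0.998). For Smc3 they were Cdkn2aip, Atp11a and Mdm1 (0.996, 0.995 and 0.994). With 6 libraries in 2 groups and a close pair, such values are common: 293 genes exceeded 0.95 with Wapl and 109 with Smc3.

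**Figure D5:**
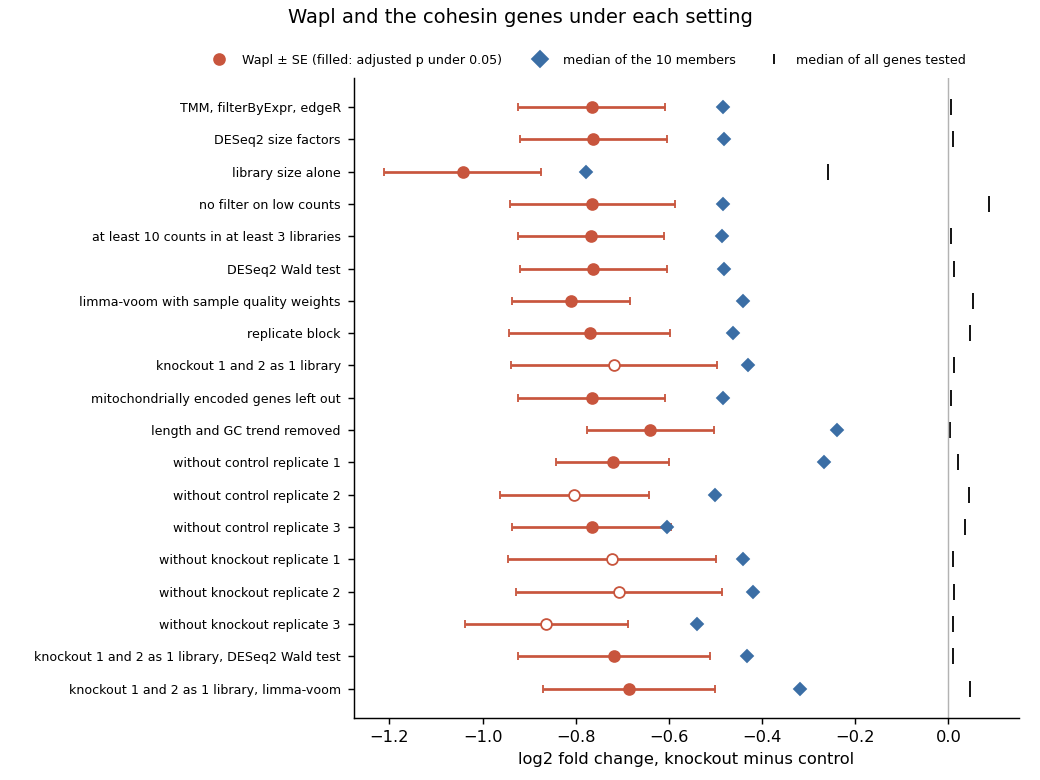
Log2 fold change of Wapl (red, ± SE, filled for an adjusted p under 0.05), the median of the 10 cohesin genes (blue) and the median of all genes tested (black) on the horizontal axis, under each setting on the vertical axis. Wapl stays between −1.04 and −0.64, and the median of the 10 genes is nearest 0 with the length and GC trend removed (−0.24) and without control 1 (−0.27).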

How the data were processed

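RNA of about 1000 cells per library was reverse transcribed from an anchored oligo-dT primer, amplified by SMART-seq2 and sequenced as read pairs of 150 bp, per the labels' protocols. The method adds no molecular identifiers and keeps no strand. The authors deposited whole-number read counts for each Ensembl gene. Their processing used mm10, and STAR 2.7.5c, StringTie 2.1.7, Trimmomatic 0.39, edgeR and DESeq2 are named, per the submitters' processing notes. Their roles, the counter and the annotation were not found in the sources used here. The authors' sum and mean columns were not used.

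Symbols, positions and exon lengths came from GENCODE M21 (GRCm38, mm10), and 22562 of 22579 identifiers matched. Genotype effects were tested mainly by quasi-likelihood F tests in edgeR 4.0.16 (R 4.3.3) with TMM scaling, filterByExpr, robust dispersion and no other term. Genes with a two-sided Benjamini-Hochberg adjusted p under 0.05 over all genes tested were called. CPM values are counts over TMM-scaled library size, and standard errors are log2 fold changes divided by the root of F. Ratios of partner genes were tested by exact permutation.

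All 10 members, Ddx20 and genes of fixed pathway lists are named, and of lists over 8 genes only called members could be. For likeness, the 3 genes with the highest r were taken for the member with the smallest p and for Smc3. Members and lists were chosen with earlier results of these data known. Alternatives were DESeq2 1.42.0, limma-voom (limma 3.58.1), other scalings and filters, blocking on the replicate number, leaving out each library, the 2 close knockouts as 1 library, mitochondrial genes left out and a length and GC trend removed (lowess span 0.3). The close pair tested by DESeq2 and limma-voom was chosen after seeing the data. The edgeR, DESeq2 and limma-voom tests were tried on simulated data that held no close pair of libraries. The permutation test was not tried on them.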

Additional observations from a re-analysis of the deposited data

How the results depend on the processing

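The number of all genes called was 713. It was 1380 with library size alone, 1641 by DESeq2 and 2882 by limma-voom. With the close knockouts as 1 library it was 1 by edgeR, where 2150 of 15406 genes had an unadjusted p under 0.05. With that pair it was 465 by DESeq2, whose adjusted p values there covered 8535 genes. Without 1 library each it ran from 3 to 840. Library size alone moved the median of all genes to −0.26 and gave 1154 lower and 226 higher genes, against 413 lower and 300 higher.

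Cohesin genes called lower numbered 1, against 3 with library size alone (Rad21, Wapl and Pds5b), 2 by DESeq2, 5 by limma-voom, 0 with the close pair as 1 library by edgeR, where 2 had an unadjusted p under 0.05, and 0 to 3 without 1 library each. None was called higher under any of these settings. By limma-voom and DESeq2, 11.7% and 5.74% of all genes tested were called lower. The median of the 10 genes was −0.78 with library size alone, −0.24 with the length and GC trend removed and −0.60 to −0.27 without 1 library each. Wapl was called in 13 of 18 alternatives, with log2 fold changes from −1.04 to −0.64. The other 9 genes, Smc1a aside, kept a negative sign in all 18. Smc1a was at 0.16 by limma-voom (0.047 with the close pair), 0.11 with the trend removed, 0.00 (0.001) with the replicate block and −0.11 to 0.10 without 1 library each, being 0.10, 0.01 and 0.07 without control 1, control 3 and knockout 3.

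Ddx20 had −1.94 with an adjusted p of 0.0543 with the close pair as 1 library and −2.05 to −1.61 without 1 library each (adjusted p 0.0135 to 0.0620). Ratios without overlap numbered 2, and 2 to 4 without 1 library each. The log2 difference turned to −0.040 and −0.053 for Pds5a to Pds5b without control 2 and without knockout 3, and to −0.003 for Nipbl to Wapl without control 3, where it was 0.416 without control 1.

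Deviations of same-numbered libraries from their group means correlated at −0.004, 0.009 and 0.006. With 3 libraries per group and a close pair of knockouts, such values cannot decide whether the replicate numbers pair the libraries. With the replicate block 683 genes were called, and Wapl kept its call (log2 fold change −0.77, adjusted p 0.0334).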
